A study of Mus musculus with 12 samples.

Results

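The genes described here encode the core proteins of the basement membrane: the laminin chains Lama2, Lama4, Lamb1, Lamb2 and Lamc1, the nidogens Nid1 and Nid2, perlecan (Hspg2), and the type IV collagen chains Col4a1 and Col4a2. They were taken by symbol from the gene lists of the deposited matrices, and all 10 were found among 27998 listed genes. A basement membrane is a thin sheet of extracellular matrix on which epithelial and endothelial cells rest and which surrounds each fat and muscle cell. Laminin trimers of an alpha, a beta and a gamma chain form a first network at the cell surface, type IV collagen forms a second network, and nidogen and perlecan tie these together. In the mammary gland such a sheet encloses the ducts, and much of its type IV collagen and nidogen is made by fibroblasts of the stroma.

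Mammary glands of C57BL/6J mice aged 43 weeks were dissociated, and droplet-based single-cell RNA sequencing gave counts of unique molecular identifiers (UMIs) at the 3′ ends of transcripts. The series held 12 groups of 1 library each, with 41737881 to 109224969 UMIs per library and 58620 cell barcodes in all. Group Intact received no VCD. The other 11 groups received VCD (4-vinylcyclohexene diepoxide), which depletes ovarian follicles, at 160 mg/kg per day for 15 days, so every comparison below that leaves out Intact lies within VCD-treated mice. The labels do not say how many mice went into a library.

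Hormones were injected in the last week. VCD_Vehicle received none, VCD_E2 received 17β-estradiol (E2) at 1 µg per animal per day, VCD_E2_P4 received E2 and progesterone (P4) at 1 mg per animal per day, and VCD_E2_ICI received E2 and ICI, an antagonist of the estrogen receptor, as 5 mg given 1 time. The same 3 hormone levels were combined with a diet containing polybrominated diphenyl ethers (PBDEs). VCD_Low_PBDE, VCD_Low_E2 and VCD_Low_E2_P4 received the low dose (0.05 mg/kg per day of PBDE-47) for 20 weeks. VCD_High_PBDE, VCD_High_PBDE_E2 and VCD_High_PBDE_E2_P4 received the high dose (1 mg/kg per day of PBDE-47) for 1 week, so dose and duration of PBDE cannot be told apart. VCD_Vehicle_NormEnv was a further VCD group without hormone labelled NormEnv, a term that the sources used here do not explain.

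Fibroblasts were sorted into 4 subsets by markers of the populations that the study calls Fib_0 to Fib_3, and none of the 10 members was among these markers. After quality filters and removal of cells with a UMI of the epithelial genes Epcam or Krt14, the immune genes Ptprc or Cd52, the endothelial gene Pecam1 or the pericyte gene Cspg4, 30935 fibroblasts remained. They divided into 10710 Fib_0 cells (Dpp4 and Pi16), 5724 Fib_1 cells (Fabp4 and Lpl), 3183 Fib_2 cells (Tnc and Mfap4) and 3305 Fib_3 cells (Gdf10 and F3), and 8013 fibroblasts (25.9%) stayed ungated because no subset score led by the margin of 0.5. The gates were built on such markers, so marker levels describe the gates and do not test them. Some markers were shared between subsets. The Fib_1 marker Lpl had a UMI in 92.2% of Fib_2 cells without hormone and 97.3% with E2. Mfap4 had one in 33.7% of Fib_2 cells without hormone. The 8 Fib_1 markers summed, per library, to 10385 to 16034 CPM in Fib_1, 2685 to 3782 in Fib_2 and 2451 to 3163 in Fib_3. Dpp4 reached 590 CPM (counts per 1000000 UMIs of the summed cells) in Fib_0 and 20.1 to 90.5 in the others, and Tnc 245 in Fib_2 and at most 1.29 in the others. Scores of 2931 fibroblasts (9.47%) lay within 0.1 of the margin, and 274 barcodes occurred in 2 or more libraries. Count folders carried one tag in 5 libraries and another in 7. The meaning of the tags is not given in the sources used here, and they did not cut evenly across the groups. The tag of 5 libraries was that of Intact, VCD_Vehicle, VCD_E2, VCD_E2_P4 and VCD_Low_PBDE. All 3 high PBDE libraries, VCD_Low_E2, VCD_Low_E2_P4, VCD_Vehicle_NormEnv and VCD_E2_ICI carried the other.

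A gate on lymphatic endothelial markers held 53 cells, with Mmrn1, Lyve1 and Prox1 among its 10 leading genes. A gate on blood endothelial markers held 57 cells, led by Flt1. It is called the vascular gate here and given no cell type name, because its cells held a median of only 4201 UMIs. In 5 of 9 libraries they lay far below the median of that library (over 3 times lower). None of the 8 markers used was among its 10 leading genes. The lymphatic gate was drawn on the same 8 markers and was part of that comparison, so their absence says nothing of the name.

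Counts were summed per library and gate, and a level below is the CPM of such a sum. UMIs from 3′ ends are not divided by transcript length, so levels are compared between samples and gates and never between genes. For a fibroblast subset a fall or rise cannot be split into a change per cell and a change in which cells the gate takes. Tests used edgeR's quasi-likelihood test on the sums with Benjamini-Hochberg adjustment over all genes tested, and a gene was called at an adjusted p under 0.05. Libraries of 1 hormone level at different PBDE levels served as its replicates, since no group has a second library, and the p-values measure the spread between these libraries.

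The pair with the widest range across the subsets, Col4a1 and Col4a2, lies head to head on chromosome 8 of GRCm38. Col4a1 runs on the minus strand (8:11198423-11312826) and Col4a2 on the plus strand (8:11312805-11449287), and their 5′ ends are 21 bases apart. The promoter windows of RefSeq on GRCm38.p6, from 250 bases before to 50 bases after each start, are shown because the 78 bases that they share, in capitals, are the same DNA read on opposite strands (8:11312777-11312854).

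Col4a1, chr8:11312777-11313076, minus strand: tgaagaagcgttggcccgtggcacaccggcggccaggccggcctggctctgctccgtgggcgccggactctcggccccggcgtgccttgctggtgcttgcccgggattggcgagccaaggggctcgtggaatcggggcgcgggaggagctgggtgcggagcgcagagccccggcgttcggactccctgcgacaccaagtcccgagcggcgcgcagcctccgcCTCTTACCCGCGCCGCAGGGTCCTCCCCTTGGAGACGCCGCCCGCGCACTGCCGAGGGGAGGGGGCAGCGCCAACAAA
Col4a2, chr8:11312555-11312854, plus strand: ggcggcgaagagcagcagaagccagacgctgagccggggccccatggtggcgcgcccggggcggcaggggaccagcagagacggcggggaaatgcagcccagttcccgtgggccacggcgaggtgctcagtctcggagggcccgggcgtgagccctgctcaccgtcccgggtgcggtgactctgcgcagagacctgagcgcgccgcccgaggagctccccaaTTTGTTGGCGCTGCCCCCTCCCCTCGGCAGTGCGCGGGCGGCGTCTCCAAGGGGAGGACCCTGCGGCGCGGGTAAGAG

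Searched on both strands, the motif GGGCGG occurred 1 time in the Col4a1 window and 3 times in the Col4a2 window, with 1 occurrence in the shared stretch, and 35.7% of the 32851 windows in the RefSeq table hold it. The motif CCAAT occurred 1 time in each window and not in the shared stretch (37.4% of all windows). TATAAA (13.6% of all windows) and the palindromic estrogen response element (0.07% of all windows) occurred in neither, nor in the windows of the other 5 members with an entry, Lama2, Lamb1, Lamb2, Nid1 and Hspg2. These are matches of letters in a short window and say nothing of binding. The other members lie apart, Lama2 (10:26980036-27619758) and Lama4 (10:38965515-39110188) on chromosome 10, Lamb1 on 12, Lamb2 on 9, Lamc1 on 1, Nid1 on 13, Nid2 on 14 and Hspg2 on 4.

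Which fibroblasts carry the basement membrane genes was asked first, by comparing each subset with the mean of the other 3 in all 12 libraries with library as a block. Fib_1, the subset marked by the adipogenic genes Fabp4 and Lpl, was higher in 9 of 10 members and lower in Lamb2. Fib_0 was lower in 5 members and higher in 4, Fib_2 higher in 6 and lower in 2, and Fib_3 higher in 2 and lower in 6. Differences between subsets were common among all 12570 genes tested, so the counts carry little by themselves: 35.8% of genes were higher and 35.6% lower in Fib_0, 30.1% and 29.6% in Fib_1, 31.4% and 29.3% in Fib_2, and 24.2% and 27.0% in Fib_3. The sizes and the opposite signs of related chains are described below.

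**Figure D1:**
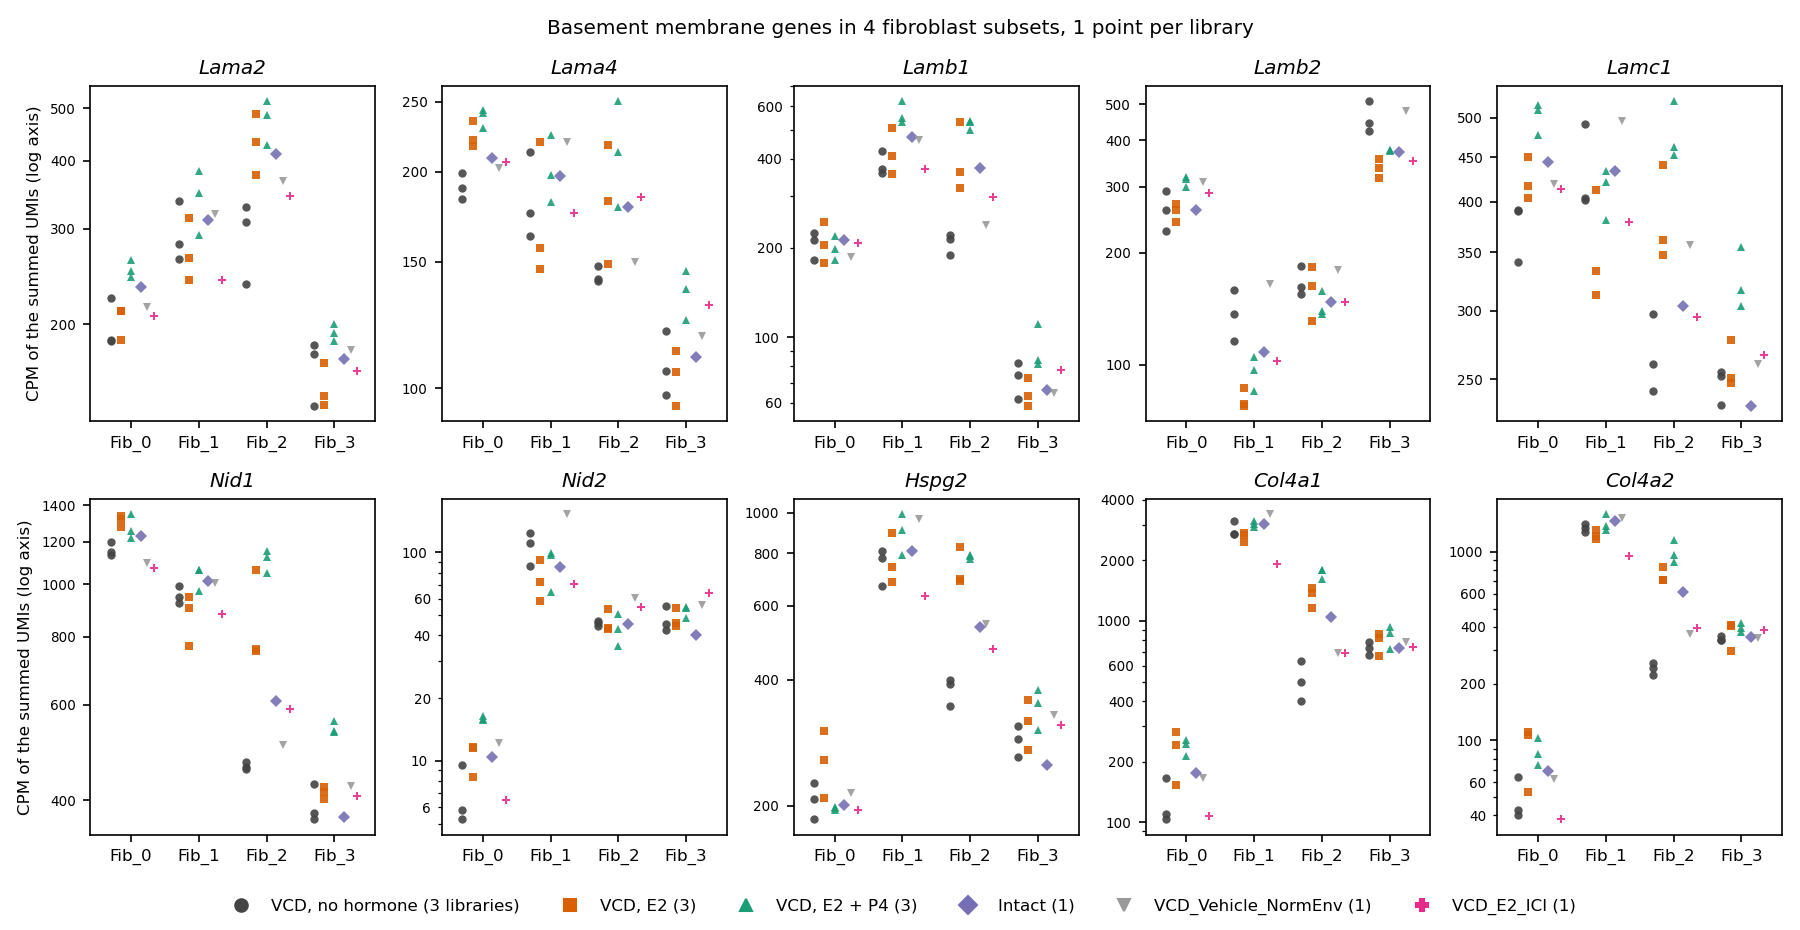
Each panel shows 1 gene, with the subset on the x axis and the CPM of the summed UMIs on a log y axis, and each point is 1 library coloured by hormone group. Col4a1 and Col4a2 separate all 12 Fib_1 libraries from all 12 Fib_0 libraries, Lamb1 and Lamb2 run in opposite directions from Fib_1 to Fib_3, and in Fib_2 the 6 E2 and E2 + P4 libraries stand above the 3 libraries without hormone of the PBDE layout for 8 of the 10 genes.

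Type IV collagen separated the subsets most. Pooled over libraries, Col4a1, whose chain occurs in duplicate in the main type IV collagen trimer, was at 2848 CPM in Fib_1, 1184 in Fib_2, 786 in Fib_3 and 187 in Fib_0. Col4a2, which encodes its partner chain, was at 1333, 673, 373 and 72.1 CPM in the same order. Fib_1 exceeded the mean of the others by a log2 fold of 2.46 ± 0.10 (SE) for Col4a1 and 2.48 ± 0.12 for Col4a2, and Fib_0 lay below it by 2.87 ± 0.14 and 3.25 ± 0.16. The libraries did not overlap: Col4a1 in Fib_1 ranged from 1921 to 3386 CPM and in Fib_0 from 103 to 281. In Fib_2 the excess was small (0.39 ± 0.11 and 0.71 ± 0.13) and the libraries spread from 402 to 1797 CPM for Col4a1. The pooled order of Fib_2 and Fib_3 was reversed in VCD_Vehicle, VCD_Low_PBDE and VCD_High_PBDE, which received no hormone. Col4a1 was there at 500, 402 and 635 CPM in Fib_2 against 784, 733 and 679 CPM in Fib_3. Col4a2 was at 241, 223 and 259 CPM against 339, 343 and 358 CPM. In Fib_3 neither chain was called (0.02 ± 0.11 and 0.06 ± 0.13, edgeR adjusted p = 0.887 and 0.722).

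Over all libraries, the share of cells with a UMI followed the pooled order for Col4a1, with 99.9% in Fib_1, 92.8% in Fib_2, 91.0% in Fib_3 and 77.9% in Fib_0. Immune cells, which should lack the gene, held one in 19.5% of cells at a median of 7212 UMIs per cell, against 18572 in Fib_0. Cells with at least 5000 UMIs were then thinned to that number, which left out 2014 immune, 533 Fib_0 and 273 Fib_1 cells, and the shares were 100.0% in Fib_1, 47.6% in Fib_0 and 11.0% in immune cells. The share in Fib_0 thus exceeded that in immune cells at equal depth.

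The laminin beta chains had opposite patterns. Beta chains take the same place in a laminin trimer, and a trimer holds 1 of them. Pooled over libraries, Lamb1 was at 446 CPM in Fib_1, 387 in Fib_2, 202 in Fib_0 and 74.4 in Fib_3. Lamb2 was at 388 CPM in Fib_3, 279 in Fib_0, 154 in Fib_2 and 116 in Fib_1, the reverse of this pooled order. In VCD_Vehicle, VCD_Low_PBDE and VCD_High_PBDE, Lamb1 did not separate Fib_2 (221, 214 and 189 CPM) from Fib_0 (225, 213 and 182 CPM). Fib_3 differed from the mean of the others by -2.04 ± 0.09 for Lamb1 and 1.27 ± 0.06 for Lamb2, and Fib_1 by 1.37 ± 0.08 and -1.25 ± 0.07. Across the 48 sums of library and subset the log2 levels of the pair had a Pearson r of -0.89, and within the subsets, over 12 libraries each, r ran from -0.67 in Fib_2 to -0.12 in Fib_3. These coefficients are descriptions, since sums of 1 library share its depth and preparation.

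As a share of the UMIs of both genes, Lamb1 made up a median of 80.9% in Fib_1 (72.7 to 86.7%), 67.8% in Fib_2 (53.8 to 80.3%), 41.4% in Fib_0 (37.6 to 48.5%) and 16.3% in Fib_3 (10.8 to 22.9%). No library of Fib_3 reached the lowest of Fib_0, and no library of Fib_0 reached the lowest of Fib_2. A gene's 3′ count depends on its transcript end, so the share compares subsets and is not the ratio of the proteins.

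**Figure D2:**
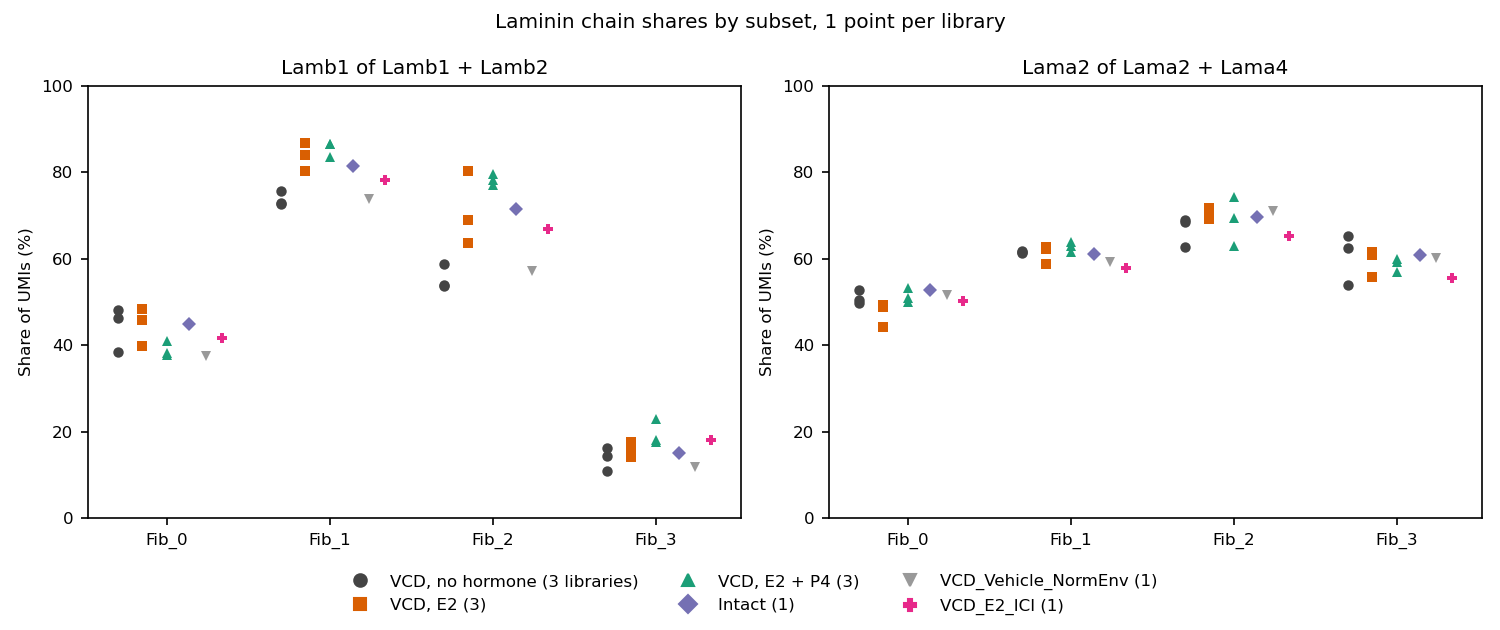
The y axis gives the share of UMIs in percent, for Lamb1 among Lamb1 and Lamb2 (left) and Lama2 among Lama2 and Lama4 (right), by subset, with 1 point per library. The Lamb1 share spans 10.8 to 86.7% over the subsets and is higher in E2 and E2 + P4 libraries than in libraries without hormone in Fib_1 and Fib_2, while the Lama2 share stays between 44.3 and 74.2%.

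The alpha chains, which carry the main cell-binding part of a laminin, varied less. Lama2, the alpha chain of muscle and nerve laminin whose loss causes a congenital muscular dystrophy, was at 414 CPM in Fib_2, 304 in Fib_1, 219 in Fib_0 and 174 in Fib_3. In VCD_Vehicle, VCD_Low_PBDE and VCD_High_PBDE, Lama2 was at 329, 309 and 237 CPM in Fib_2 against 337, 282 and 264 CPM in Fib_1. Lama4, typical of vessels and fat cells, was at 215 CPM in Fib_0, 191 in Fib_1, 182 in Fib_2 and 117 in Fib_3. Fib_2 exceeded the mean of the others for Lama2 (0.72 ± 0.05) and not for Lama4 (-0.02 ± 0.05, edgeR adjusted p = 0.82), and the Lama2 share of both had medians of 69.3% in Fib_2 and 50.3% in Fib_0. The sign for Lama4 in Fib_2 depended on the markers of the gate: with Fib_2 gated on its 5 markers that the study does not name, an alternative chosen after the data were seen, Lama4 was called higher, by 0.28. Lamc1, the gamma chain of most laminins, was at 431 CPM in Fib_0, 412 in Fib_1, 374 in Fib_2 and 273 in Fib_3, and the subsets differed from the mean of the others by 0.50 or less on the log2 scale.

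The nidogens also ran apart. Nid1 was at 1224 CPM in Fib_0, 951 in Fib_1, 794 in Fib_2 and 446 in Fib_3, so Fib_0, lowest in type IV collagen, was highest in Nid1 (0.89 ± 0.07). Nid2 was at 10.9 CPM in Fib_0 and 96.6, 46.2 and 49.7 CPM in Fib_1, Fib_2 and Fib_3. In Fib_0 16.1% of cells had a Nid2 UMI, against 3.11% of immune cells and 67.5% of Fib_1 cells. In the cells thinned to 5000 UMIs these shares were 5.08%, 1.51% and 36.0%. Perlecan, the large heparan sulfate proteoglycan of the membrane, was at 809 CPM in Fib_1, 626 in Fib_2, 313 in Fib_3 and 215 in Fib_0, the order of the pooled Col4a1 levels. In VCD_Vehicle, VCD_Low_PBDE and VCD_High_PBDE the 2 genes differed. Hspg2 there was higher in Fib_2 (390, 347 and 399 CPM) than in Fib_3 (311, 262 and 289 CPM), and Col4a1 was lower.

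E2 was then compared with no hormone in each subset, over the 9 VCD libraries that cross 3 hormone levels with 3 PBDE levels, with the mean of E2 and E2 + P4 set against no hormone and PBDE level as a further term. The change lay mostly in Fib_2. In this subset 8 of the 10 members were higher with E2: Col4a2, Col4a1, Lamb1, Nid1, Hspg2, Lamc1, Lama2 and Lama4. Among all 11417 genes tested in Fib_2, 17.3% were higher. Lamb2 (-0.21 ± 0.11, edgeR adjusted p = 0.177) and Nid2 (-0.11 ± 0.13, adjusted p = 0.522) were not called. The median log2 fold of the members was 0.77 and that of all genes -0.01.

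Col4a2 stood at 241, 223 and 259 CPM in the Fib_2 cells of VCD_Vehicle, VCD_Low_PBDE and VCD_High_PBDE. It stood at 710, 712 and 827 CPM in the 3 E2 libraries and at 1158, 879 and 964 CPM in the 3 E2 + P4 libraries, in the same order of PBDE level. These groups did not overlap. VCD_Vehicle_NormEnv, a library without hormone outside this layout, was at 368 CPM, also below all 6 libraries with E2. The fitted log2 fold was 1.77 ± 0.11 (3.42-fold, edgeR adjusted p = 2.18e-06). Col4a1 stood at 500, 402 and 635 CPM without hormone, 1166, 1457 and 1372 CPM with E2, and 1796, 1622 and 1797 CPM with E2 + P4. Here too no libraries overlapped, and the log2 fold was 1.52 ± 0.14 (2.86-fold, adjusted p = 1.77e-05).

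**Figure D3:**
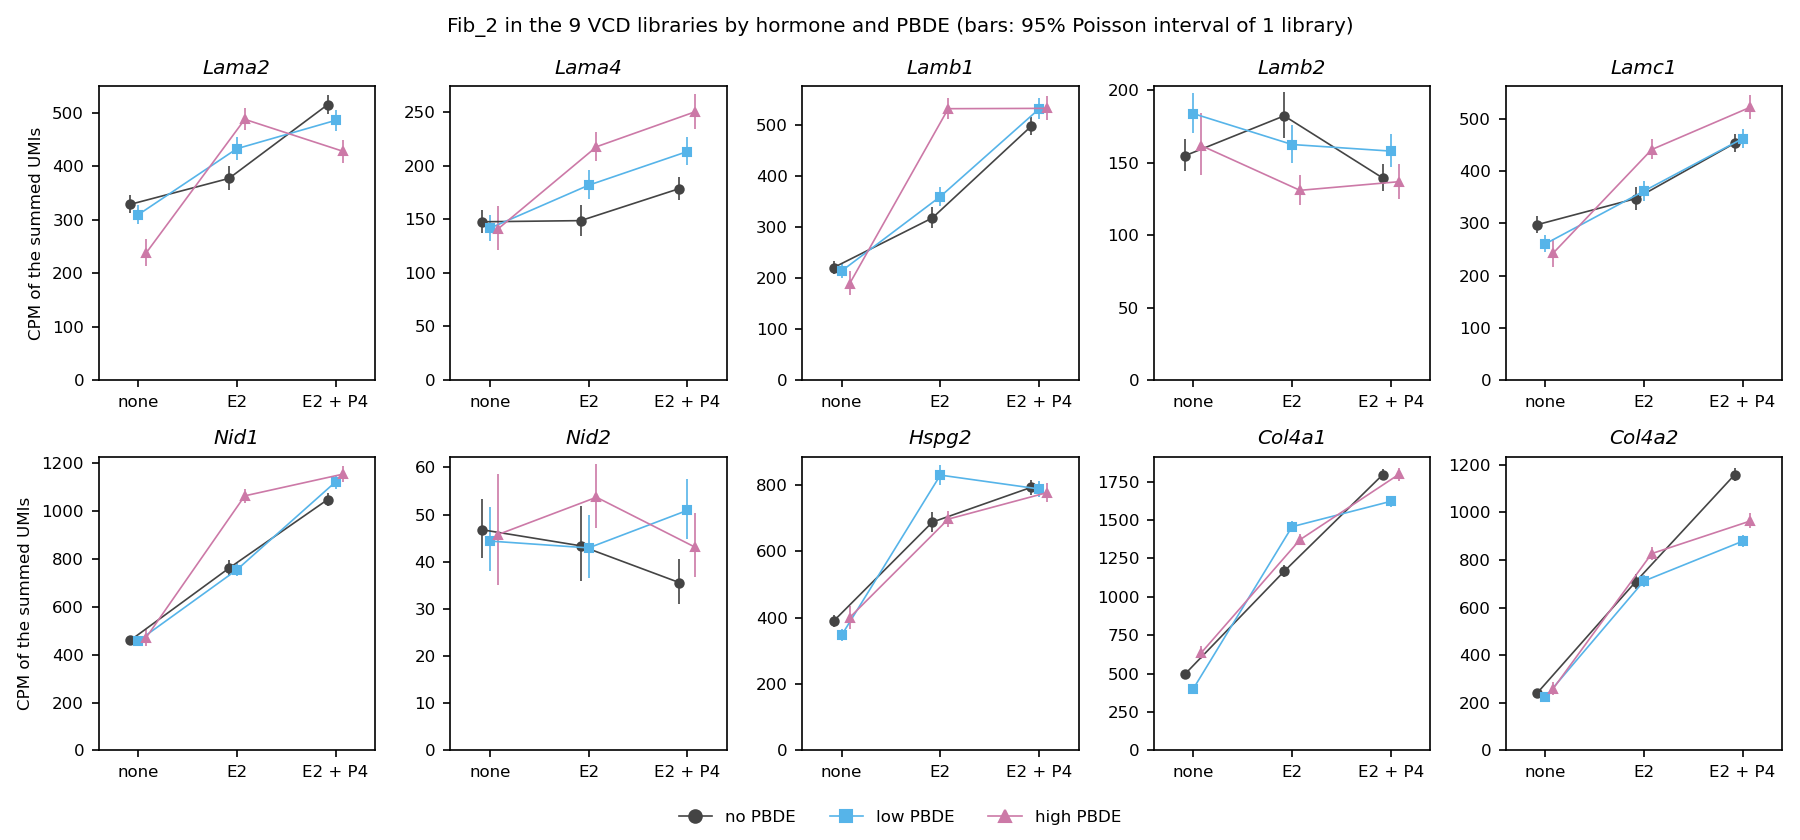
Each panel shows 1 gene in Fib_2, with the hormone level on the x axis and the CPM of the summed UMIs on a y axis from 0, 1 point per library coloured by PBDE level, and bars for the 95% Poisson interval of that library, which covers counting error only. Col4a2 rises from 223 to 259 CPM without hormone to 710 to 827 with E2 and 879 to 1158 with E2 + P4 at all 3 PBDE levels. With E2, Lamb2 is higher in 1 and Nid2 in 2 of the 6 pairs of libraries that share a PBDE level.

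Of the 5 laminin members, Lamb1 had the largest log2 fold. It stood at 221, 214 and 189 CPM without hormone, 318, 360 and 533 CPM with E2, and 498, 532 and 533 CPM with E2 + P4, and the log2 fold was 1.05 ± 0.14 (adjusted p = 0.000294). Lamb2 stood at 155, 184 and 162 CPM without hormone and between 131 and 182 CPM in the 6 libraries with E2, which overlap. The Lamb1 share of the beta chains therefore went from 53.8 to 58.8% without hormone to 63.6 to 80.3% with E2, without overlap. Lamc1 stood at 297, 260 and 243 CPM without hormone and from 347 to 522 CPM with E2, a log2 fold of 0.60 ± 0.11 (adjusted p = 0.00202).

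The alpha chains changed less. Lama2 stood at 329, 309 and 237 CPM without hormone, 377, 433 and 488 CPM with E2, and 515, 486 and 428 CPM with E2 + P4 (log2 fold 0.57 ± 0.13, edgeR adjusted p = 0.0059). Lama4 stood at 148, 142 and 141 CPM without hormone, 149, 182 and 218 CPM with E2, and 179, 213 and 250 CPM with E2 + P4 (0.36 ± 0.11, adjusted p = 0.0293). The Lama4 libraries do not overlap, but VCD_E2 at 149 CPM lies next to VCD_Vehicle at 148 CPM. Its call was lost in 5 of 14 other settings (adjusted p up to 0.375) and in 5 of the 9 fits that left out 1 library, those without VCD_Low_PBDE, VCD_Low_E2, VCD_Low_E2_P4, VCD_High_PBDE or VCD_High_PBDE_E2_P4 (adjusted p up to 0.15). Lama2 lost its call only when the gates used the markers named in the study alone (0.43, adjusted p = 0.129). The other 6 members were called in all 14 settings and all 9 leave-outs.

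Nid1 stood at 459, 457 and 471 CPM without hormone, 761, 754 and 1063 CPM with E2, and 1048, 1122 and 1154 CPM with E2 + P4. The 3 libraries without hormone lie close together and below all others, and the log2 fold was 1.00 ± 0.11 (edgeR adjusted p = 6.14e-05). Nid2 stood between 44.4 and 46.8 CPM without hormone and between 35.6 and 53.7 CPM with E2. Hspg2 stood at 390, 347 and 399 CPM without hormone and between 687 and 829 CPM with E2, a log2 fold of 0.94 ± 0.11 (adjusted p = 9.28e-05). For all 8 members each of the 6 libraries with E2 exceeded each of the 3 without hormone, which held for 18.0% of 10850 genes with a mean of at least 10 UMIs. VCD_Vehicle_NormEnv, outside this layout, overlapped with VCD_E2 for Lamc1 (357 against 347 CPM) and Lama4 (149.8 against 148.8 CPM). Within the 6 pairs of libraries that share a PBDE level, the log2 ratios of these members ran from 0.01 (Lama4) to 2.26 (Col4a2). In the pairs at low PBDE, hormone and folder tag changed together.

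The gate itself moved with E2. Of the Fib_2 markers, Penk had a UMI in 92.7% of Fib_2 cells without hormone, 82.8% with E2 and 52.7% with E2 + P4, and Mfap4 in 33.7%, 57.3% and 81.9%. The summed level of all 8 Fib_1 markers in Fib_2 cells was 2685 to 2953 CPM without hormone and 3219 to 3782 CPM with E2, and that of all 8 Fib_2 markers 4241 to 4379 CPM and 2980 to 4028 CPM. The part of this in the result was not tested. The count of members called went from 8 to 6 with the gates on the markers named in the study alone (Tnc, Mfap4 and Mdk for Fib_2), where Lama2 and Lama4 were lost, and was 8 with the other 5 Fib_2 markers, chosen after the data were seen.

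Markers of other cell types in Fib_2 moved in both directions. Endothelial, pericyte and Schwann cell markers were lower with E2. All 8 endothelial markers summed to 8.05 to 11.6 CPM without hormone and 3.88 to 7.22 CPM with E2. The 8 pericyte markers summed to 51.6 to 55.3 CPM and 12.7 to 21.2 CPM, with Higd1b at 0 in every Fib_2 cell of the 9 libraries (cells with a Cspg4 UMI had been removed). The 8 Schwann cell markers summed to 278 to 289 CPM and 124 to 247 CPM, mostly through Scn7a, with Sox10 at 0. The 8 basal epithelial markers summed to 9.44 to 10.6 CPM without hormone and 9.57 to 73.6 CPM with E2, and the 8 immune markers to 3.63 to 8.81 CPM and 5.22 to 20.4 CPM. Their part in the result was not tested.

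In the 8013 ungated fibroblasts none of the 10 members was called with E2 by edgeR (17.3% of 12794 genes were, in either direction), with log2 folds from -0.45 for Nid2 (adjusted p = 0.0597) to 0.41 for Lamb1 (adjusted p = 0.243).

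Other genes of the membrane were compared in the same fit, from lists chosen with earlier results of these data known. Of 15 tested genes for the folding and cross-linking of collagen, a list not limited to type IV, 13 rose in Fib_2 with E2 and none fell (median 0.78). These included the lysyl hydroxylases Plod2 (1.57 ± 0.11) and Plod1 (1.06 ± 0.14), the prolyl hydroxylases P3h1 (1.46 ± 0.11) and P4ha3 (3.58 ± 0.39), and the collagen glycosyltransferase Colgalt1 (0.78 ± 0.10). All 5 fibrillar collagens, which are not part of the basement membrane, rose as well, with a median of 2.14, above that of the members, from Col5a1 at 1.52 ± 0.10 to Col3a1 at 2.53 ± 0.12.

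Not every gene of the membrane rose. The alternative type IV chains Col4a3 (-2.56 ± 0.25) and Col4a4 (-1.91 ± 0.18) fell, and the other chain tested was not called. Of 2 tested laminin chains outside the set, 1 rose, the gamma chain Lamc3 (0.89 ± 0.19), and 1 fell. Of 19 tested proteins in and beside the membrane, 10 rose, among them Col15a1 (2.06 ± 0.12), Sparc (2.06 ± 0.13), Frem1 (2.99 ± 0.19) and Col6a2 (1.46 ± 0.11), and 6 fell, among them the integrin ligand Tgfbi (-3.35 ± 0.12). Of 8 tested receptors, 4 rose and 2 fell. Over all genes tested in Fib_2, 17.3% were higher and 16.5% lower. The syndecan Sdc1 rose by 2.80 ± 0.14 and the integrin subunits Itgb1, Itga1 and Itga9 by 0.57 to 0.77, and Sdc4 fell by 0.95 on the log2 scale (SE 0.15).

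In Fib_0, 5 members were higher with E2 (5.41% of all 12727 genes were higher). These were Nid2 (0.94 ± 0.15, edgeR adjusted p = 0.0109), Col4a1 (0.88 ± 0.19, adjusted p = 0.0253), Col4a2 (0.86 ± 0.17, adjusted p = 0.0224), Lamc1 (0.29 ± 0.08, adjusted p = 0.05) and Lama4 (0.26 ± 0.06, adjusted p = 0.0283). Col4a2 stood at 63.7, 42.8 and 40.3 CPM without hormone, 111, 107 and 53.6 CPM with E2, and 103, 74.3 and 85 CPM with E2 + P4. VCD_High_PBDE_E2 lies inside the range without hormone, as it does for Col4a1 (153 CPM against 103 to 166 CPM). Nid2, low in this subset, stood at 9.55, 5.24 and 5.83 CPM without hormone and at 11.7, 8.32 and 11.5 CPM with E2. With E2 + P4 it was at 15.9, 16.3 and 15.7 CPM. For Nid2, VCD_Low_E2 lies inside the range without hormone. Lama4 did not overlap, with 183 to 199 CPM without hormone and 217 to 244 CPM with E2, nor did Lamc1, with 341 to 391 CPM and 404 to 517 CPM, nor Nid1, which was not called, with 1133 to 1195 CPM and 1216 to 1346 CPM. Of all genes with a mean of at least 10 UMIs, 7.6% had every E2 library above in Fib_0. The log2 folds of Lama4 and Lamc1 were the smallest of the 5.

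The gate moved here as well. In Fib_0 cells the summed Fib_1 markers were at 357 to 583 CPM without hormone and 462 to 699 CPM with E2, and the Fib_2 markers at 130 to 178 CPM and 175 to 242 CPM. Their part in the result was not tested.

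These Fib_0 calls were not stable. None of the 5 was called with the folder tag as a further term or with the 3 E2 libraries alone set against no hormone. Without VCD_Low_PBDE none was called, without VCD_High_PBDE 1 was, without VCD_Vehicle 2 were, and 3 were without each of VCD_E2, VCD_Low_E2, VCD_Low_E2_P4 and VCD_High_PBDE_E2_P4.

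In Fib_1, where type IV collagen is highest, Lamb2 was lower with E2 (3.15% of 11767 genes were lower) and the other 9 members were not called. Lamb2 stood at 159, 137 and 116 CPM without hormone, 86.6, 78.2 and 77.4 CPM with E2, and 97, 105 and 85.1 CPM with E2 + P4. All libraries with E2 lie below all without (3.75% of genes with a mean of at least 10 UMIs did), the log2 fold was -0.68 ± 0.08 (edgeR adjusted p = 0.00194), and the call held in all 14 settings and all 9 leave-outs. Col4a1 (-0.05 ± 0.09) and Col4a2 (-0.06 ± 0.09) stood at 2468 to 3133 CPM and 1165 to 1578 CPM in the 6 libraries with E2, and at 2695 to 3132 CPM and 1267 to 1406 CPM in the 3 without. The 8 Fib_1 markers summed to 10385 to 11646 CPM in Fib_1 cells without hormone and 12278 to 16034 CPM with E2, and the part of this in the Lamb2 result was not tested. With Lamb1 at 0.31 ± 0.12 (adjusted p = 0.145), the Lamb1 share of the beta chains was 72.7 to 75.6% without hormone and 80.4 to 86.7% with E2.

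In Fib_3 no member was called with E2 by edgeR or DESeq2, and 3.0% of 11260 genes were called in either direction. At an unadjusted p under 0.05 there were 5 members, against 2074 of the 11260 genes. Lamb2, highest in this subset, stood at 425 to 510 CPM without hormone and 318 to 377 CPM with E2. These libraries do not overlap (5.23% of genes with a mean of at least 10 UMIs had every E2 library below), and the log2 difference was -0.31 ± 0.09 (edgeR adjusted p = 0.0779).

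**Figure D4:**
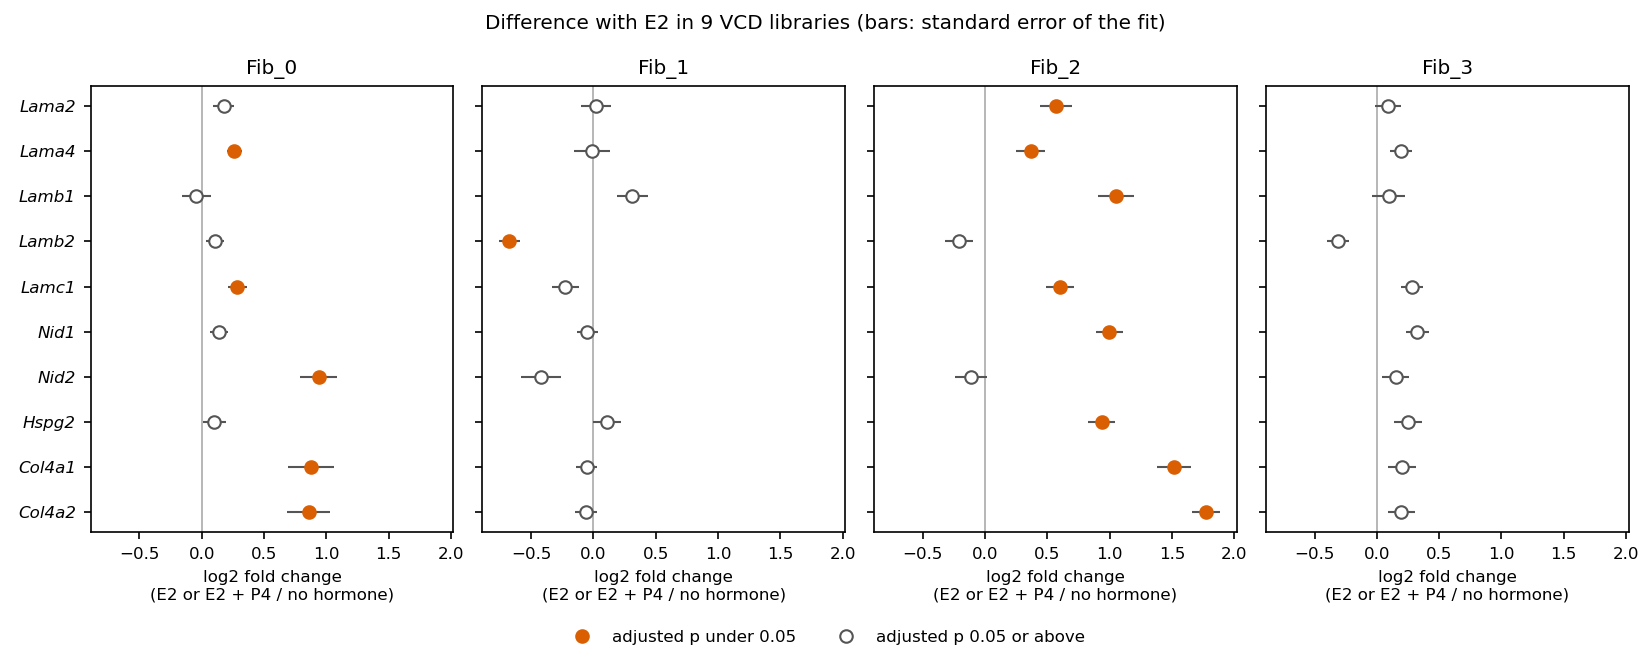
The x axis gives the log2 fold of E2 or E2 + P4 over no hormone in 9 VCD libraries, with bars for the standard error, by gene (y axis) and subset (panels), and filled points mark an adjusted p under 0.05. In Fib_2 8 points are filled, all right of 0 from Lama4 at 0.36 to Col4a2 at 1.77, in Fib_0 5 are filled, all right of 0, in Fib_1 Lamb2 alone is filled, left of 0, and in Fib_3 none is.

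Whether the E2 difference itself varied between subsets was tested in 1 model over the 36 sums, each subset's log2 fold against the mean of the other 3. Fib_2 had a larger log2 fold for 7 members (13.4% of 12925 genes were higher in this test): Col4a2 by 1.44 ± 0.15, Col4a1 by 1.17 ± 0.14, Lamb1 by 0.92 ± 0.11, Nid1 by 0.85 ± 0.09, Hspg2 by 0.77 ± 0.12, Lamc1 by 0.48 ± 0.10 and Lama2 by 0.47 ± 0.11 (edgeR adjusted p from 5.07e-07 to 0.00276). Lama4 was not among them (0.21 ± 0.12, adjusted p = 0.218). Fib_1 had a smaller log2 fold for 6 members (1.62% of all genes were lower), from Lamb2 (-0.54 ± 0.09) and Nid1 (-0.54 ± 0.08) to Col4a1 (-0.92 ± 0.13) and Col4a2 (-1.003 ± 0.13). Fib_0 differed for 4 members (16.7% of all genes in either direction), with larger values for Nid2 (1.07 ± 0.16) and Lamb2 (0.52 ± 0.09) and smaller ones for Lamb1 (-0.52 ± 0.10) and Nid1 (-0.28 ± 0.08). Fib_3 had a smaller value for Col4a1 (-0.57 ± 0.13) and Col4a2 (-0.65 ± 0.14) (1.18% of all genes were lower). Neither Fib_3 call held without VCD_Vehicle or without VCD_Low_PBDE. The contrasts of the 4 subsets share their samples and are not independent.

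E2 + P4 was compared with E2 in the same fits, to ask whether progesterone added to the difference. No member was called in any subset. The share of all genes called was 0.0471% in Fib_0, 0.289% in Fib_1, 3.56% in Fib_2 and 0.115% in Fib_3. An unadjusted p under 0.05 was reached by 6, 1, 5 and 6 members in this order, against 1284 of 12727, 1685 of 11767, 2111 of 11417 and 967 of 11260 genes. DESeq2 called 1, Nid1 in Fib_3. In Fib_2 the estimate was 0.39 ± 0.12 for Col4a2 (edgeR adjusted p = 0.0962), 0.36 ± 0.12 for Nid1 (adjusted p = 0.126), 0.36 ± 0.14 for Col4a1 (adjusted p = 0.206) and 0.37 ± 0.16 for Lamb1 (adjusted p = 0.238). For Lamb1 the high PBDE libraries were at 533 CPM with and without P4. Estimates were above 0 for 9, 10, 8 and 10 members in Fib_0 to Fib_3, and in Fib_3, where they ran from 0.17 to 0.56, the lowest adjusted p was 0.146 (Lama4).

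No member was called for PBDE. For the high dose against none, PBDE level and folder tag changed together. With the low dose 0.0%, 0.0085%, 0.0% and 0.0178% of all genes were called in Fib_0 to Fib_3, and with the high dose 0.165%, 0.365%, 0.0438% and 0.471%. Estimates of the members ran from -0.65 to 0.28 with the high dose and from -0.38 to 0.15 with the low dose. The lowest, Col4a2 in Fib_0 with the high dose (-0.65 ± 0.20, edgeR adjusted p = 0.144), was called by DESeq2. At an unadjusted p under 0.05 it was joined by Lamb2 in Fib_1 with the high dose (-0.36 ± 0.10) and Nid2 in Fib_0 with the low dose (-0.38 ± 0.16), where 2425 of 12727, 1767 of 11767 and 616 of 12727 genes reached it in these fits.

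The 3 groups outside the layout are single libraries, and their values have no replicate check. VCD_Vehicle_NormEnv and VCD_E2_ICI also differ in folder tag from VCD_Vehicle and VCD_E2. In Fib_2 of Intact, Col4a1 was at 1047 CPM and Col4a2 at 614 CPM, above VCD_Vehicle (500 and 241) and below VCD_E2 (1166 and 710). Lamb1 in Intact, at 372 CPM, lay above both VCD_Vehicle (221) and VCD_E2 (318). Nid1 was at 610 CPM in Intact, 459 in VCD_Vehicle and 761 in VCD_E2. In Fib_1 of Intact, Lamb2 was at 108 CPM, below the 116 to 159 CPM of the 3 layout libraries without hormone and the 164 CPM of VCD_Vehicle_NormEnv.

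With the antagonist ICI, Fib_2 levels lay between those of VCD_Vehicle and VCD_E2 for Lama2 (345 CPM), Lamb1 (296 CPM), Nid1 (588 CPM), Hspg2 (474 CPM), Col4a1 (694 CPM) and Col4a2 (393 CPM). Of the other 2 members higher with E2, Lama4 was at 184 CPM with ICI, above VCD_Vehicle (148) and VCD_E2 (149), and Lamc1 at 295 CPM, next to VCD_Vehicle (297) and below VCD_E2 (347). In Fib_0 Col4a1 was at 108 CPM and Col4a2 at 38.2 CPM in VCD_E2_ICI, against 242 and 111 CPM in VCD_E2 and 166 and 63.7 CPM in VCD_Vehicle. In Fib_1 Col4a1 was at 1921 CPM with ICI, below the 2468 to 3386 CPM of the other 11 libraries. VCD_Vehicle_NormEnv, which shares its lack of hormone with VCD_Vehicle, had higher Fib_2 levels of Col4a1 (693 against 500 CPM), Col4a2 (368 against 241 CPM) and Hspg2 (542 against 390 CPM). For Col4a2 this is a log2 ratio of 0.61 between a pair of libraries without hormone. With it added to the fit, 8 members were still called for E2 in Fib_2.

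**Figure D5:**
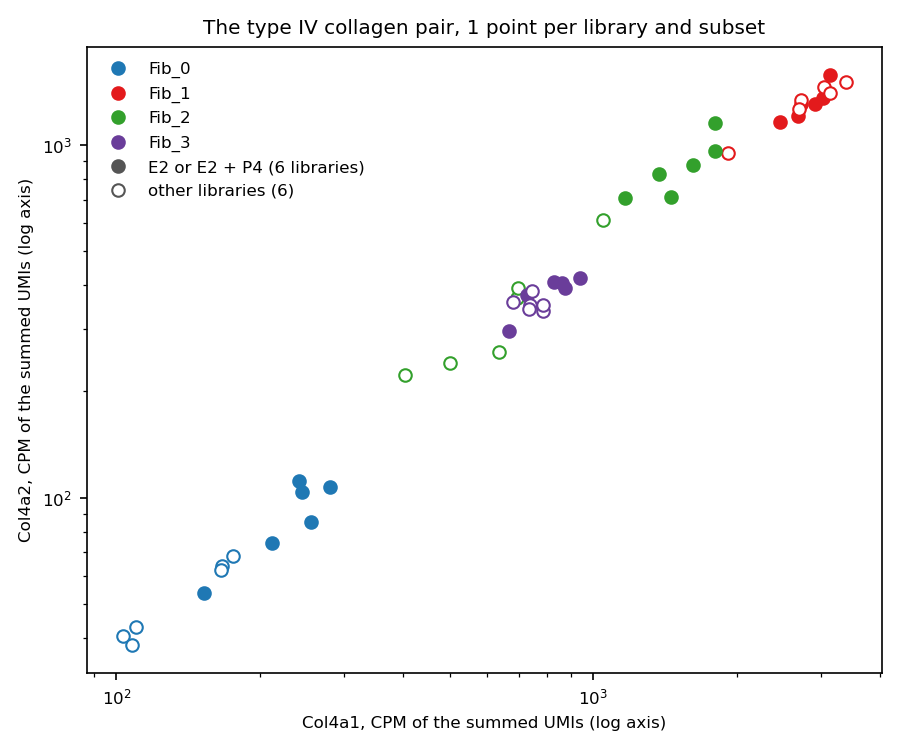
Col4a1 (x axis) and Col4a2 (y axis) are plotted as CPM of the summed UMIs on log axes, 1 point per library and subset, filled for the 6 libraries with E2 or E2 + P4. The 48 points run along 1 line from Fib_0 (103 CPM of Col4a1 at the lowest) to Fib_1 (3386 CPM at the highest), and within Fib_2 the filled points lie above the open ones.

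Levels of Col4a1 and Col4a2 went together over the 48 sums (Pearson r = 0.99 of log2 levels) and within each subset (0.97 in Fib_0, 0.95 in Fib_1, 0.98 in Fib_2 and 0.77 in Fib_3, over 12 libraries). After its partner, the genes with the pattern most like Col4a1 were Meox1 (0.96) and Bmper (0.95), and for Col4a2 they were Col15a1 (0.96) and Bmper (0.96). Nid1, Lamc1 and Lama4 were each other's nearest genes, with r = 0.91 for each pair. Hspg2 was most like Col6a1 and Col6a2 (0.98 each), Lama2 like Dnajc1 (0.92), Lamb1 like Adcy3 (0.94), Lamb2 like Chrdl1 (0.94) and Nid2 like Fam198b (0.95). These values are over sums that share libraries, with genes of a mean of at least 20 CPM as candidates, and carry no p.

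The vascular and lymphatic gates held too few cells for a comparison of hormone groups: 3 libraries reached 10 cells of both gates together, and VCD_Low_PBDE held none. In these 3 libraries the cells were compared with the 4 fibroblast subsets. Lama4 was higher (0.54 ± 0.13, edgeR adjusted p = 0.00573), and 8 members were lower, by 0.94 on the log2 scale for Lamb1 up to 4.31 for Lama2 (14.7% of 12238 genes were higher and 18.9% lower). Nid2 was not called (0.24 ± 0.32). The test took both gates together, and the pooled Lama4 level, given below, was higher in lymphatic cells than in the vascular gate. Lama4 stood at 331 CPM in VCD_Low_E2 (16 cells, all lymphatic), 283 in VCD_Low_E2_P4 (41 cells) and 363 in VCD_Vehicle_NormEnv (18 cells), and its call was lost without VCD_Low_E2 (adjusted p = 0.122).

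Pooled values of the 2 gates are given with Poisson intervals. Lama4 was at 407 CPM (95% interval 370 to 447) in lymphatic cells and 121 (86.3 to 166) in the vascular gate. Col4a1 was at 320 (287 to 355) and 588 CPM (507 to 678), Col4a2 at 104 (85.5 to 124) and 327 CPM (267 to 396), and Hspg2 at 154 (131 to 179) and 476 CPM (404 to 558). Lama2, made by all 4 fibroblast subsets, was at 5.45 CPM in lymphatic cells and 37.3 in the vascular gate, and at 7.5 in immune cells. Fibroblast and pericyte genes were also higher in the vascular gate than in lymphatic cells, with Col1a1 at 1543 against 38.2 CPM, Dcn at 1450 against 161 CPM and Rgs5 at 196 against 0 CPM, and their part in these values was not tested. These pools come mostly from few libraries, 30 of the 57 vascular cells from VCD_Low_E2_P4, and the intervals cover counting error only.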

How the data were processed

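The deposited files are count matrices of UMIs per gene and cell barcode, made by the authors with Cell Ranger 3.1.0 on the mouse build mm10 (submitters' processing notes), without normalization. The 10 genes and the other gene lists were chosen with earlier results of these data known. Cells were kept from 500 genes and 1000 UMIs upward if mitochondrial UMIs did not exceed 5%. A fibroblast had at least 0.5 of the fibroblast markers and a UMI of Col1a1 or Pdgfra, and was gated to the subset with the highest mean z-scored marker level if it led by 0.5. Doublets were not called. Leaving out the 5% of cells with most UMIs per library was an alternative. UMIs were summed per library and gate and tested with edgeR 4.0.16 (quasi-likelihood, TMM, filterByExpr) in R 4.3.3, tested first on simulated data, with DESeq2 1.42.0 as an alternative. In the simulation, at a dispersion of 0.02, the E2 test recovered 80 to 89.5% of genes changed by a log2 fold of 1. At 0.5 it recovered 15.6 to 33%, the test of E2 differences between subsets 8.42% (Fib_2) and that of the vascular and lymphatic gates 2.02%. Genes not called may therefore still differ. Other alternatives were RLE size factors, filters, margins, marker sets, model terms, added libraries and leaving out each library. Subset sums held 1377117 to 26537825 UMIs, and intervals for single libraries are 95% exact Poisson intervals for counting error only. Single-library ratios and likeness used log2(CPM + 1). All 10 members were named in every comparison, and of another list at most 5 called genes with the smallest adjusted p. Positions are from GENCODE M21 on mm10, and promoter windows from RefSeq, which had entries for 7 members. Proteins were not used here. The result of 1 gene of the other lists is not reported here.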

Additional observations from a re-analysis of the deposited data

Results flagged for a closer look

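Among the 6 libraries with E2 or E2 + P4, Col4a2 in Fib_3 was at 297 CPM in VCD_High_PBDE_E2, while the other 5 stood between 376 and 421 CPM, a gap beyond Dixon's 95% critical value. It was 1 of 40 groups of 6 examined, and chance gives such a gap in about 1 of 20 groups.

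The E2 difference varied between fibroblast subsets for 19 pairs of gene and subset, by edgeR's test of each subset's log2 fold minus the mean of the other 3. Of all 12925 genes, 16.7% were called in Fib_0, 3.1% in Fib_1, 28.4% in Fib_2 and 3.59% in Fib_3, in either direction. The pairs are not separate results, since each subset also enters the mean that the others are set against. In Fib_2 this was 1.44 for Col4a2, 1.17 for Col4a1, 0.92 for Lamb1, 0.85 for Nid1, 0.77 for Hspg2, 0.48 for Lamc1 and 0.47 for Lama2. In Fib_1 it was -1.003 for Col4a2, -0.92 for Col4a1, -0.75 for Nid2, -0.61 for Lamc1, -0.54 for Lamb2 and -0.54 for Nid1. In Fib_0 it was 1.07 for Nid2, 0.52 for Lamb2, -0.52 for Lamb1 and -0.28 for Nid1. In Fib_3 it was -0.57 for Col4a1 and -0.65 for Col4a2, and both calls were lost without VCD_Vehicle or without VCD_Low_PBDE.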

How the results depend on the processing

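No analysis paired by replicate number was possible, because the groups share a single one. Library between subsets and PBDE level between hormone groups were terms of the main fits. Of 2850 member values under other settings 2640 kept their direction and side of the threshold, 36 lost a call, 29 gained one, 143 without a call moved and 2 reversed. Of 2310 values with 1 library left out, 2120 were kept. Both reversals came from gating Fib_2 on its markers that the study does not name, chosen after the data were seen: against the other subsets, Lama4 went to 0.28 (from -0.02) and Nid1 to 0.0086 (adjusted p = 0.929, from -0.23). The cause was not tested. The count of members called for E2 in Fib_0 went from 5 to 3 with the margin 2 times as wide and to 0 with the folder tag or E2 libraries alone (0 to 5 with 1 library left out). In Fib_2 it went from 8 to 6 with the markers named in the study alone and was 7 or 8 otherwise. In Fib_1 it went from 1 to 2 without the count filter (1 to 2 with 1 library left out). In Fib_3 it went from 0 to 1 with those other Fib_2 markers or with VCD_Vehicle_NormEnv added. For E2 + P4 against E2 it went from 0 to 1 in Fib_2 without the count filter, with the wide margin or with the markers named in the study (0 to 2 with 1 library left out), and in Fib_3 to 1 with DESeq2 and 2 without the count filter. For high PBDE in Fib_0 it went from 0 to 1 with DESeq2. For the difference of the E2 effect, Fib_0 went from 4 up to 7 (4 to 7 with 1 library left out, the highest without VCD_High_PBDE_E2), and Fib_3 from 2 to 1 with the wide margin, 5 with the markers named in the study and 1 with the other Fib_2 markers (0 to 2 with 1 library left out, 0 without VCD_Vehicle or VCD_Low_PBDE). Calls over all genes moved further: for E2 from 3858 (2027 to 4173) in Fib_2 and from 1312 (174 to 1612) in Fib_0. The libraries of the study alone could not be used for the comparison of the vascular and lymphatic gates, which few cells limit.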

Other observations

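Members were also counted in gates outside the comparisons, as pooled values with 95% Poisson intervals. A gate on pericyte and smooth muscle markers (41 cells) had Col4a1 at 821 CPM (675 to 988) and Col4a2 at 555 CPM (436 to 695). A gate on Schwann cell markers (72 cells) had Nid2 at 202 CPM (163 to 248), above the 96.6 CPM pooled in Fib_1, and Hspg2 at 462 CPM (401 to 529). Fibroblast genes stood above their level in immune cells (Col1a1 137 CPM, Dcn 314 CPM) in both gates, with Col1a1 at 932 and 1043 CPM and Dcn at 651 and 3863 CPM, and their part in these values was not tested. Luminal epithelial cells (163 cells) held all 10 members at 33.3 CPM or less, with Lamb2 at 33.3 CPM (27.3 to 40.2).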
